A study of Mus musculus with 6 samples.

Results

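The genes that encode Wnt ligands, their receptors and their secreted antagonists were followed in AOM/DSS-induced colorectal tumors with and without epithelial Trp53. Membership was decided by gene symbol alone, and 46 of the 54167 genes in the expression table met the rule. They comprised 19 Wnt ligand genes, 10 Frizzled receptor genes, the 2 co-receptor genes Lrp5 and Lrp6, 4 R-spondin genes, 4 Dickkopf genes, 6 genes for antagonists that bind Wnt proteins (Sfrp1, Sfrp2, Sfrp4, Sfrp5, Frzb and Wif1) and Porcn, which encodes the enzyme that attaches a lipid to Wnt proteins.

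Bulk RNA was sequenced from 6 colorectal tumors of male C57BL/6J mice, 3 of the Trp53fl/fl genotype and 3 of the VP genotype (Pvillin-Cre + Trp53fl/fl). Both genotypes carried Trp53 alleles flanked by loxP sites, which stay intact in Trp53fl/fl mice, whereas in VP mice the villin promoter drives Cre in intestinal epithelial cells, so that fibroblasts, muscle, vessels and immune cells of a VP tumor keep Trp53. At 8 weeks of age all mice were given the carcinogen azoxymethane (AOM, 10 mg/kg), which was followed by cycles of 2.5% dextran sulfate sodium (DSS), which irritates the colonic mucosa, each lasting 7 days, and the colon was opened on day 98 to collect the tumors. The labels number the tumors 1 to 3 in each genotype without naming the animals, so the p-values measure only the spread between these samples, which may be technical. Levels are given in TPM, a unit that corrects for transcript length and for library size, so levels of different genes can be set side by side.

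Wnt proteins are lipid-modified by Porcn, secreted, and bound at the cell surface by a Frizzled receptor together with Lrp5 or Lrp6, after which beta-catenin escapes degradation and drives transcription with TCF/LEF factors. R-spondins strengthen the signal by sparing Frizzled receptors from removal by the ubiquitin ligases Rnf43 and Znrf3. Sfrp proteins, Frzb and Wif1 bind Wnt proteins outside the cell, while most Dickkopf proteins act on Lrp5 and Lrp6. In the colon this pathway maintains the crypt stem cells, its ligands and antagonists are made by the mesenchyme as well as the epithelium, and most colorectal tumors switch it on below the receptor.

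Trp53 itself was lower in VP tumors, with 125, 99.3 and 147 TPM against 38.5, 32.8 and 27.8 TPM (log2 fold change -1.87, SE 0.18, limma adjusted p = 0.0207). The limma adjusted p was 0.0284 without Trp53fl/fl tumor 2 and 0.0447 without VP tumor 3, and it lay between 0.0553 and 0.0986 without any other single tumor. Epithelial identity was clear in all 6 tumors, with Krt8, a keratin of simple epithelia, between 2563 and 3177 TPM. The 13 epithelial markers summed to between 9724 and 10239.6 TPM in the Trp53fl/fl tumors and between 10602 and 11798 TPM in the VP tumors, without overlap, although only Krt19 and Cldn7 among them did not overlap singly. Krt19 alone averaged 2080 and 2727 TPM, respectively. The 7 neutrophil markers summed to between 256 and 599 TPM and to between 1086 and 1824 TPM, respectively, and 6 of the 7 did not overlap between the genotypes. The sequencing depth is unknown, because TPM keep no number of reads. In bulk tissue, fewer cells of a type and less RNA per cell cannot be told apart.

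Wnt-related transcripts differed in level by orders of magnitude. Averaged over the 6 tumors, 11 members reached at least 10 TPM, 18 lay between 1 and 10 TPM and 17 were under 1 TPM. The members averaging at least 10 TPM were the antagonists Wif1 and Sfrp1, the Dickkopf genes Dkk3 and Dkk2, the co-receptors Lrp5 and Lrp6, the receptors Fzd1 and Fzd6, and the ligands Wnt6, Wnt5a and Wnt10a. Wif1 was the highest of the 46 in every tumor. In the plot of all members by class, the Trp53fl/fl and VP points intermingle for most genes. The genes whose points do not overlap are spread over the ligands, the Frizzled receptors, the Wnt-binding antagonists and the Dickkopf genes.

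**Figure D1:**
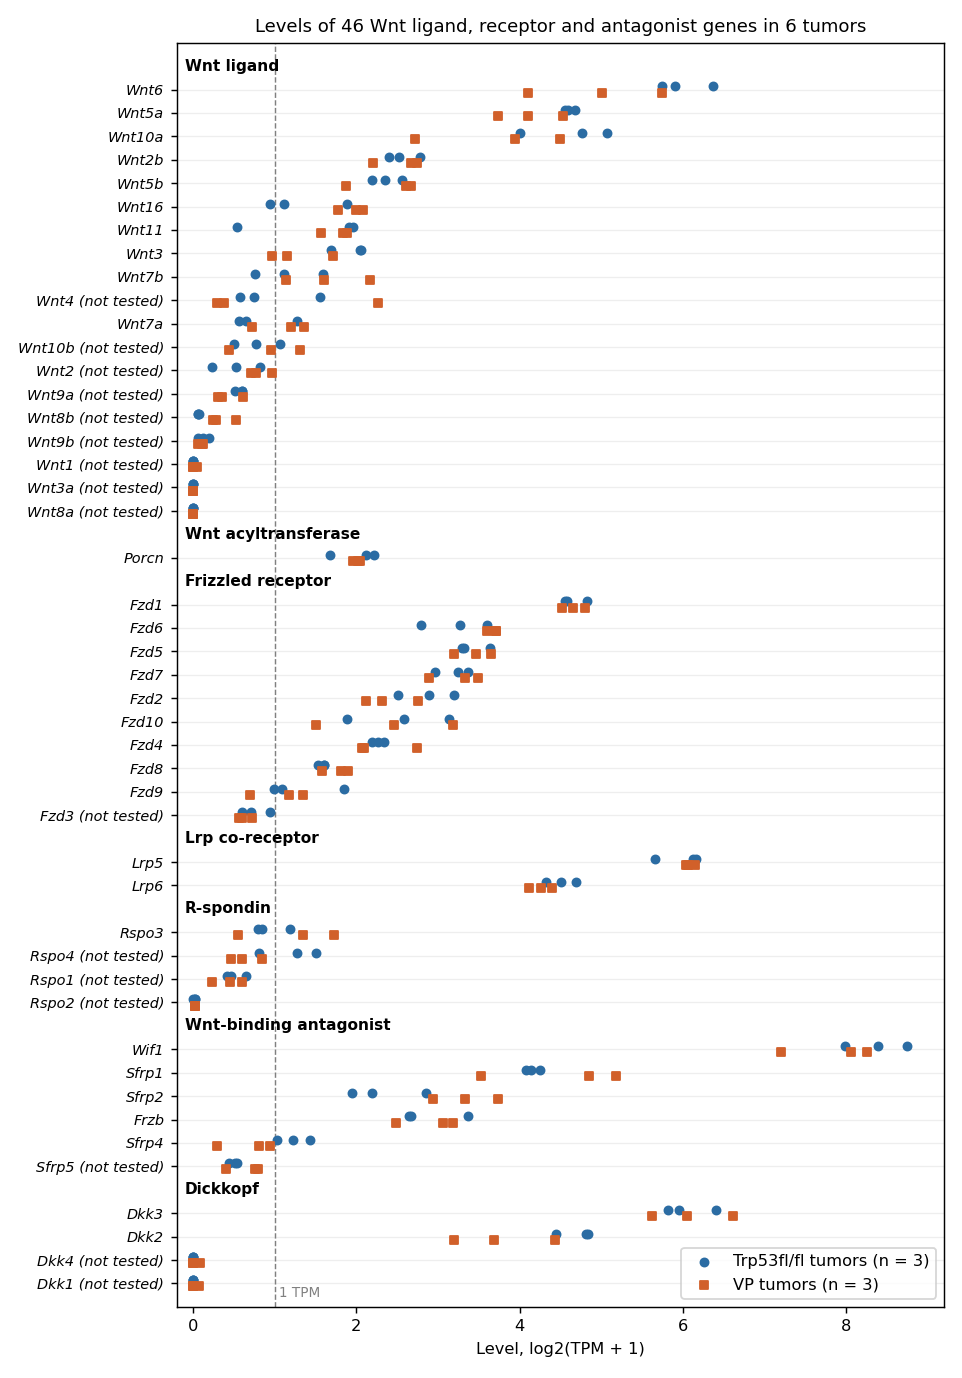
Level of each of the 46 genes in each tumor, as log2(TPM + 1), with Trp53fl/fl tumors as blue circles and VP tumors as orange squares (n = 3 each), by class and in order of mean level. The dashed line marks 1 TPM, and genes marked as not tested are the 16 that did not reach 1 TPM in at least 3 tumors.

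Of the 46 genes, 30 reached 1 TPM in at least 3 tumors and were tested as part of the 15117 genes that did so. Among them, 0 of 30 had a limma adjusted p under 0.05, a threshold passed by 25 of the 15117 genes (0.165%). The lowest adjusted p of a member was 0.310, for Sfrp2. At an unadjusted limma p under 0.05 there were 5 of 30 (16.7%), against 12.5% of all genes tested. Their number fell to 2 without Trp53fl/fl tumor 1, without Trp53fl/fl tumor 3 or without VP tumor 1. Of the 5, Sfrp2 was higher in VP tumors, 1 of 30 (3.33%) against 4.51% of all genes, and Dkk2, Wnt6, Wnt3 and Wnt5a were lower, 4 of 30 (13.3%) against 8% of all genes. The 2 genotypes did not overlap for 5 of 30 members (16.7%), against 19.3% of all genes tested. Sfrp2 and Fzd6 were the 2 with every VP tumor above every Trp53fl/fl tumor (6.67%, against 6.03%), and Dkk2, Wnt5a and Sfrp4 the 3 with every VP tumor below (10%, against 13.3%). Sfrp4 was tested only because its 3 Trp53fl/fl values reached 1 TPM, so its place in these counts follows from that threshold. These shares stand near those of all genes and are no result about the Wnt genes as a group.

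The differences of the 30 tested members ran from -1.05 to 1.01 on the log2 scale, with 18 above and 12 below 0 and a median of 0.01, beside a median of -0.07 over all genes tested. Every difference is VP minus Trp53fl/fl on log2(TPM + 1), a scale that understates the change of weakly expressed genes. The balance of direction depended on the scaling between tumors. Of the 1892 genes with an unadjusted p under 0.05, 36% were higher in VP tumors, whereas rescaling by median ratios gave 57.8%, quantile normalization 53% and division by the epithelial markers 8.54%. Over the 30 members, 18 above and 12 below 0 became 9 above and 21 below on division by the epithelial markers. Among the members with an unadjusted p under 0.05 the split was 1 higher and 4 lower as deposited, 3 and 3 after rescaling by median ratios, 3 and 2 after quantile normalization, and 1 and 7 with division by the epithelial markers. It was 2 and 0 without Trp53fl/fl tumor 1, again 2 and 0 without Trp53fl/fl tumor 3, and 1 and 1 without VP tumor 1. Sfrp2 was the only member with an unadjusted p under 0.05 in each of the 13 alternative analyses.

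**Figure D2:**
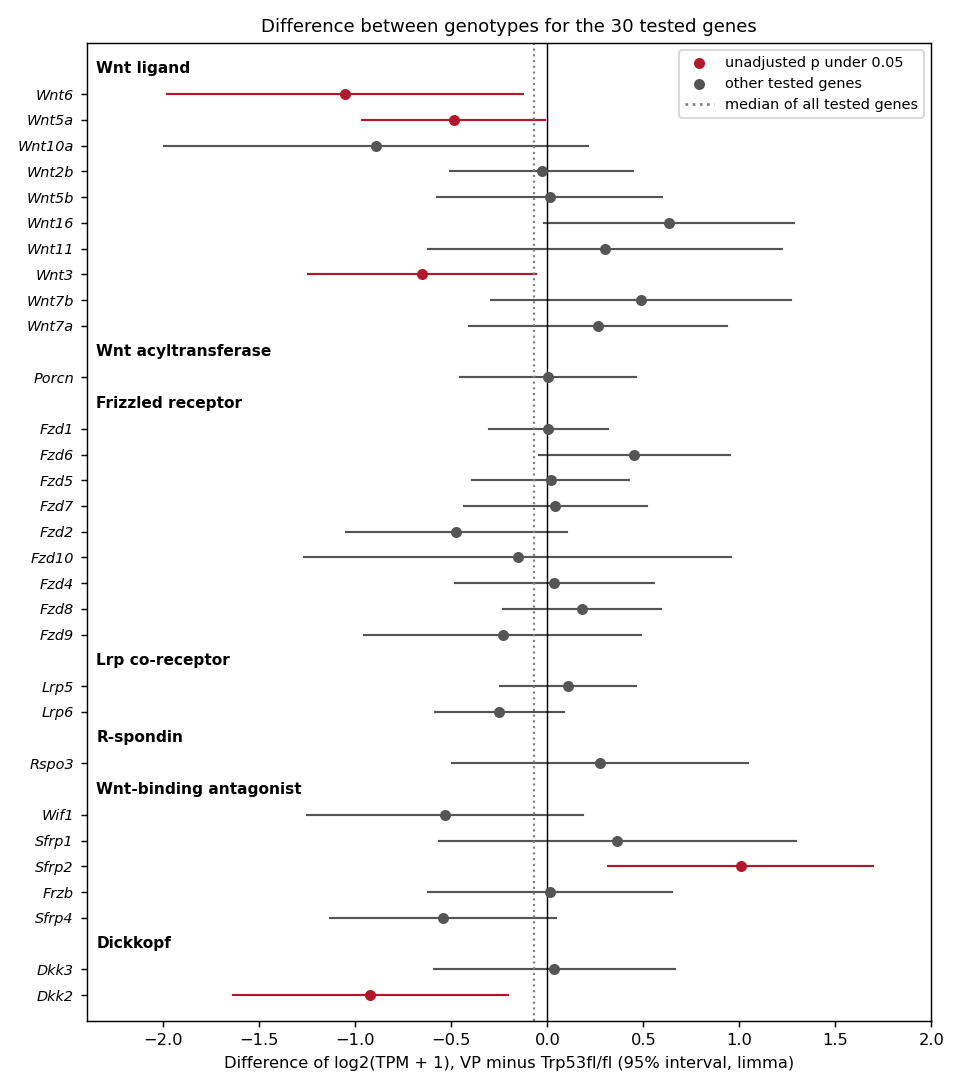
Difference between genotypes for each of the 30 tested genes, VP minus Trp53fl/fl on log2(TPM + 1), with the 95% interval from limma. The 5 genes in red had an unadjusted p under 0.05, no gene passed after adjustment, and the dotted line at -0.07 marks the median of all 15117 genes tested.

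The promoters of 4 of these 5 genes are shown so that the sequence upstream of the start site can be read beside the values that follow. Each is the 250 bases before the start site in RefSeq on GRCm38.p6, plus strand, with CpG dinucleotides in capitals.
Wnt6, chr1:74771642-74771891: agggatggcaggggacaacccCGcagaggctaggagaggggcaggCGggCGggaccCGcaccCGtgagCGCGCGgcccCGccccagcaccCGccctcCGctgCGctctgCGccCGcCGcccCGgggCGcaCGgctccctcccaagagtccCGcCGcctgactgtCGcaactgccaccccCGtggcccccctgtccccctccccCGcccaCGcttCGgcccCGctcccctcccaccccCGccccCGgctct
Wnt3, chr11:103773925-103774174: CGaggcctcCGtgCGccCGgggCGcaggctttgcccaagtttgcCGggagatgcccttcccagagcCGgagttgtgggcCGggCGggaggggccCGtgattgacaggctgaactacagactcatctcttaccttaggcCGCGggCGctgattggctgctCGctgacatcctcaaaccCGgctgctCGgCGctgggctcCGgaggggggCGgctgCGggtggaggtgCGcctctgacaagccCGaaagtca
Dkk2, chr3:132085042-132085291: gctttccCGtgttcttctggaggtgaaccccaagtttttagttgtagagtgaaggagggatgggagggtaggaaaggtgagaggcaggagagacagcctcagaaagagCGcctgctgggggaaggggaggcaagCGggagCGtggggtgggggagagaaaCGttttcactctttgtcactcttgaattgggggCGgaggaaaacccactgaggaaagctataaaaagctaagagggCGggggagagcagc
Sfrp2, chr3:83766071-83766320: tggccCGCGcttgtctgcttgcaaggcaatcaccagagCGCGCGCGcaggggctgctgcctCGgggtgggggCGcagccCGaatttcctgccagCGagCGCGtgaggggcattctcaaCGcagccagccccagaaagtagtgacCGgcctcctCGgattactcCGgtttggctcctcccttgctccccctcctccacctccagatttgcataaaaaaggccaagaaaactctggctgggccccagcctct
The Wnt6 stretch is the richest of these in CpG, with 28 in 250 bases and a GC content of 79.6%. Wnt3 held 22 CpG (68% GC), Sfrp2 16 (63.6% GC) and Dkk2 7 (55.6% GC). Over the 32 promoters that matched 29 of the member genes, the median was 22 CpG and 67.4% GC, whereas all 32851 promoters of the table had medians of 6 CpG and 52.4% GC. Member promoters on 1 chromosome were left out of the 32, a limit that was not set for all promoters. The core that TCF/LEF factors recognise, CTTTG followed by 2 bases that are each A or T, was searched on both strands. None of the 4 printed stretches holds one, and 4 of the 32 member promoters do (12.5%), beside 14.8% of all promoters. Those 4 belong to Fzd7, Wnt5b, Wnt11 and Dkk1. The p53 half-site, searched by its consensus, was in 0 of the 4 printed stretches, in 1 of the 32 (3.12%), upstream of Wnt11, and in 7.13% of all promoters.

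Wnt6 had the highest mean of the ligands over the 6 tumors, and its mean was lower in VP tumors. It stood at 58.8, 52.5 and 81.2 TPM in Trp53fl/fl tumors and at 31.1, 16.1 and 52.6 TPM in VP tumors. The genotypes overlapped only in that the highest VP tumor was level with the lowest Trp53fl/fl tumor, and the other 2 VP tumors were well below. The means were 64.2 ± 15.1 and 33.3 ± 18.4 TPM (SD, n = 3), a log2 fold change of -1.05 (SE 0.39, 95% interval -1.98 to -0.13, limma adjusted p = 0.360). Without VP tumor 2 the difference was -0.63. With single tumors left out the unadjusted limma p of Wnt6 was under 0.05 only without Trp53fl/fl tumor 2 or without VP tumor 3.

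Wnt10a, the ligand gene that adjoins Wnt6 on chromosome 1 in RefSeq GRCm38.p6 with 0 protein-coding genes between them, followed a similar order among the tumors. Its levels were 26, 15.1 and 32.5 TPM in Trp53fl/fl tumors and 14.4, 5.60 and 21.5 TPM in VP tumors. Replicate 2 was the lowest and replicate 3 the highest in both genotypes, and the ranges overlapped. The log2 fold change was -0.89 (SE 0.47, 95% interval -1.99 to 0.21, limma adjusted p = 0.466), and it was -0.39 without VP tumor 2. The ratio of Wnt6 to Wnt10a was 2.26, 3.48 and 2.5 in Trp53fl/fl tumors and 2.16, 2.88 and 2.45 in VP tumors, and these ranges overlapped.

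Wnt5a, a ligand that signals mainly without beta-catenin and is made by mesenchymal cells of the gut, was uniform in one genotype and variable in the other. It was at 22.5, 24.6 and 23.2 TPM in Trp53fl/fl tumors and at 12.3, 22.1 and 16.1 TPM in VP tumors. The genotypes did not overlap, although VP tumor 2 came close to the Trp53fl/fl range. The log2 fold change was -0.49 (SE 0.20, 95% interval -0.96 to -0.01, limma adjusted p = 0.390), and it was -0.30 without VP tumor 1. The unadjusted limma p of Wnt5a was above 0.05 under quantile normalization, under rescaling by median ratios, without the filter and without the empirical Bayes trend. With single tumors left out it was under 0.05 only without VP tumor 2.

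Wnt3, which acts through beta-catenin and is a Paneth cell product in the small intestine, was weakly expressed. Values of 3.13, 2.21 and 3.16 TPM in Trp53fl/fl tumors stood beside 1.21, 0.95 and 2.29 TPM in VP tumors. Only VP tumor 3 reached the Trp53fl/fl range. The log2 fold change was -0.65 (SE 0.25, 95% interval -1.25 to -0.06, limma adjusted p = 0.369). The unadjusted limma p of Wnt3 was above 0.05 under quantile normalization. With single tumors left out it was under 0.05 only without Trp53fl/fl tumor 2 or without VP tumor 3.

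Together the 19 ligand genes summed to 128, 111 and 159 TPM in Trp53fl/fl tumors and to 80.4, 65.0 and 116 TPM in VP tumors, with VP tumor 3 just inside the Trp53fl/fl range. Wnt6, Wnt5a and Wnt10a made up 83.7%, 83.1% and 86.1% of that sum in Trp53fl/fl tumors and 71.9%, 67.4% and 77.6% in VP tumors. The other 16 ligand genes summed to between 18.7 and 22.1 TPM and to between 21.2 and 26 TPM, respectively. The stacked plot of ligand transcripts thus differs between genotypes mainly in its 3 coloured layers. In VP tumor 2 the order of the ligands was turned, with Wnt5a at 34.0% of the sum and Wnt6 at 24.8%.

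**Figure D3:**
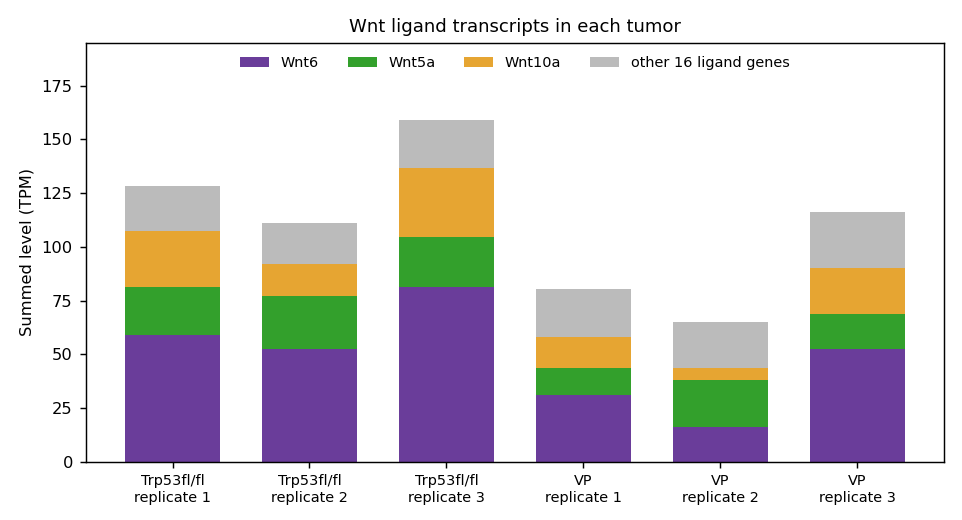
Summed level of the 19 Wnt ligand genes in each tumor in TPM, divided into Wnt6, Wnt5a, Wnt10a and the other 16 genes. The totals run from 111 to 159 TPM in the Trp53fl/fl tumors and from 65.0 to 116 TPM in the VP tumors, while the grey layer stays between 18.7 and 26 TPM throughout.

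The remaining tested ligands were low, and as deposited none had an unadjusted limma p under 0.05. Wnt16 came nearest, at 2.68, 0.92 and 1.17 TPM in Trp53fl/fl tumors and 2.97, 2.41 and 3.22 TPM in VP tumors (log2 fold change 0.63, SE 0.28, limma adjusted p = 0.408). Trp53fl/fl tumor 1 lay within the VP range, and the unadjusted p of Wnt16 was under 0.05 without that tumor, under quantile normalization, under rescaling by median ratios and without the empirical Bayes trend. Wnt2b, a mesenchymal ligand that acts on crypt stem cells, was between 3.61 and 5.86 TPM over the 6 tumors, with a difference of -0.03 (95% interval -0.51 to 0.44) whose sign turned under quantile normalization and under rescaling by median ratios. Wnt5b, the closest relative of Wnt5a, was between 2.65 and 5.33 TPM, with a difference of 0.01 (95% interval -0.58 to 0.60) whose sign turned on division by the epithelial markers. Wnt11, another ligand known for beta-catenin-independent signalling, was between 1.97 and 2.88 TPM in 5 tumors and at 0.45 TPM in Trp53fl/fl tumor 2, and its difference of 0.30 became -0.17 without that tumor. The paralogs Wnt7b and Wnt7a gave differences of 0.49 and 0.26 (limma adjusted p = 0.558 and 0.709). Without VP tumor 2 Wnt7b was at 0.22 and without VP tumor 1 at 0.74, and Wnt7a was at 0.13 without VP tumor 3 and at 0.48 without Trp53fl/fl tumor 3, all on the same log2 scale.

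The other 9 ligand genes were not tested. Wnt3a and Wnt8a were listed at 0 in all 6 tumors, and Wnt1 was listed at 0 in 5. Wnt4 was uneven within both genotypes, at 0.49, 1.93 and 0.67 TPM in Trp53fl/fl tumors and at 0.22, 0.30 and 3.81 TPM in VP tumors, so that the VP genotype held both the lowest and the highest tumor. Wnt10b, Wnt2 and Wnt9a stayed between 0.17 and 1.48 TPM and Wnt9b between 0.04 and 0.14 TPM. Wnt8b did not overlap, with 0.04, 0.04 and 0.05 TPM beside 0.21, 0.18 and 0.44 TPM in Trp53fl/fl and VP tumors, all under the level required for a test. Among these low genes are neighbours of other members in RefSeq GRCm38.p6, namely Wnt3a beside Wnt9a and Wnt9b beside Wnt3 on chromosome 11, and Wnt10b beside Wnt1 on chromosome 15. Wnt3 was thus at 0.95 to 3.16 TPM while its neighbour Wnt9b was at no more than 0.14 TPM.

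Porcn, through which all Wnt ligands pass for their lipid modification, was at 3.33, 2.20 and 3.66 TPM in Trp53fl/fl tumors and at 3.06, 3.12 and 2.90 TPM in VP tumors. The VP tumors lay within the Trp53fl/fl range, and the log2 fold change of 0.00 (SE 0.19, 95% interval -0.45 to 0.46) became -0.12 on division by the epithelial markers.

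The Frizzled receptors were spread over many genes, and their summed level overlapped between the genotypes. The 10 genes together gave 71.1, 65.0 and 75.1 TPM in Trp53fl/fl tumors and 75.9, 72.6 and 66.9 TPM in VP tumors. None of the 9 tested receptors had an unadjusted limma p under 0.05, 6 differences were above and 3 below 0 as deposited, and the median was 0.02. Fzd1, the most abundant, was at 27.4, 22.9 and 22.5 TPM and at 26.8, 24.1 and 22.0 TPM, respectively. Its difference of 0.00 had a 95% interval of -0.31 to 0.32 and became -0.16 on division by the epithelial markers.

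Fzd6, a receptor known for tissue polarity, was the single Frizzled gene whose genotypes did not overlap. It stood at 5.92, 8.65 and 11.1 TPM in Trp53fl/fl tumors and at 12.0, 11.1 and 12.1 TPM in VP tumors. The VP tumors were close together, and Trp53fl/fl tumor 3 was almost at their level. The log2 fold change was 0.45 (SE 0.21, 95% interval -0.05 to 0.95, limma adjusted p = 0.427), and it was 0.24 without Trp53fl/fl tumor 1. Under quantile normalization or rescaling by median ratios its unadjusted limma p was under 0.05, whereas division by the epithelial markers lowered the difference to 0.30 and left it above 0.05.

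Fzd2, which binds Wnt5a among other ligands, was at 6.38, 4.71 and 8.16 TPM in Trp53fl/fl tumors and at 3.95, 5.73 and 3.32 TPM in VP tumors. VP tumor 2 lay within the other genotype's range (log2 fold change -0.47, SE 0.24, limma adjusted p = 0.456). Fzd5, a receptor of the intestinal epithelium, was at 8.98, 11.5 and 8.80 TPM and at 10.04, 11.5 and 8.13 TPM, respectively. Fzd7, a receptor of intestinal stem cells, was at 8.49, 6.81 and 9.33 TPM and at 9.02, 10.3 and 6.38 TPM. Both overlapped fully, with differences of 0.02 and 0.04 that became -0.14 and -0.11 on division by the epithelial markers. Fzd10, Fzd4, Fzd8 and Fzd9 gave differences between -0.23 and 0.18, and Fzd10 varied most within a genotype, from 1.85 to 8.06 TPM among the VP tumors. Fzd3 was under 1 TPM in all tumors and was not tested.

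The co-receptor Lrp5 was more abundant than Lrp6 in every tumor, by a ratio between 1.99 and 4.26. Lrp5 was at 68.4, 49.4 and 70.3 TPM in Trp53fl/fl tumors and at 65.9, 64.8 and 69.7 TPM in VP tumors. The VP tumors lay within the Trp53fl/fl range, and the difference of 0.11 (SE 0.15, 95% interval -0.25 to 0.46, limma adjusted p = 0.783) became -0.06 on division by the epithelial markers. Lrp6 was at 21.8, 24.9 and 19.0 TPM and at 20.02, 18.2 and 16.4 TPM, respectively. Its genotypes overlapped at VP tumor 1, with a log2 fold change of -0.25 (SE 0.14, 95% interval -0.58 to 0.08, limma adjusted p = 0.492).

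R-spondin transcripts were scarce, with all 4 genes summing to between 1.04 and 3.63 TPM. Rspo3, the R-spondin of the colonic crypt mesenchyme, was the highest of them on average and the only one tested. It was at 0.79, 1.27 and 0.73 TPM in Trp53fl/fl tumors and at 1.55, 2.31 and 0.47 TPM in VP tumors. The VP genotype again held both extremes, and the log2 fold change was 0.27 (SE 0.33, 95% interval -0.50 to 1.04, limma adjusted p = 0.739), or 0.015 without VP tumor 2 and 0.60 without VP tumor 3. Rspo4 was at 1.42, 0.75 and 1.85 TPM and at 0.52, 0.79 and 0.38 TPM, respectively. Rspo1 did not exceed 0.57 TPM, and Rspo2 did not exceed 0.02 TPM.

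Among the antagonists that bind Wnt, Sfrp2 had the largest difference in favour of VP tumors of all 30 tested members. Sfrp2 is a decoy with a Frizzled-like domain that fibroblasts are known to secrete. It was at 3.56, 2.86 and 6.19 TPM in Trp53fl/fl tumors and at 9.09, 12.3 and 6.68 TPM in VP tumors. All VP tumors were above all Trp53fl/fl tumors, narrowly so for VP tumor 3 against Trp53fl/fl tumor 3. The means were 4.20 ± 1.76 and 9.35 ± 2.81 TPM (SD, n = 3), a log2 fold change of 1.01 (SE 0.29, 95% interval 0.32 to 1.70, limma adjusted p = 0.310). Leaving out each tumor in turn gave 0.81 to 1.27. The fibroblast markers that were summed beside it (12 genes) overlapped between the genotypes, at 946 to 1039 TPM and 807 to 1146 TPM. Of the 12, 5 had a difference above 0 and 7 below. Singly, 0 of the 12 were higher in every VP tumor, beside 6.03% of all genes tested. Pdgfra, Lum and Dpt were the 3 lower in every VP tumor, beside 13.3% of all genes tested. The part of fibroblasts in the Sfrp2 level was not tested.

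Sfrp1, a second decoy of this family, was steady in one genotype and scattered in the other. It was at 16.7, 18.1 and 15.8 TPM in Trp53fl/fl tumors and at 35.4, 27.8 and 10.5 TPM in VP tumors. VP tumors 1 and 2 were above every Trp53fl/fl tumor and VP tumor 3 was below them all. The log2 fold change was 0.36 (SE 0.39, 95% interval -0.57 to 1.29, limma adjusted p = 0.710), which became 0.86 without VP tumor 3 and 0.03 without VP tumor 1. The 8 smooth muscle markers summed to 697, 496 and 822 TPM in Trp53fl/fl tumors and to 887, 1363 and 421 TPM in VP tumors. VP tumor 3 was the lowest for these as well, but the highest was VP tumor 2, against VP tumor 1 for Sfrp1. Among Trp53fl/fl tumors the order was reversed, with tumor 2 lowest for the markers and highest for Sfrp1. All 8 markers overlapped between the genotypes and none was at 0, and the part of muscle in the Sfrp1 level was not tested.

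Wif1, whose product captures Wnt proteins through its own WIF domain, dominated the antagonists. It was at 427, 335 and 252 TPM in Trp53fl/fl tumors and at 266, 146 and 303 TPM in VP tumors. These values placed it above 93.4% to 97.7% of the genes tested in each tumor. The genotypes overlapped, with the lowest value in VP tumor 2, and the log2 fold change was -0.53 (SE 0.31, 95% interval -1.25 to 0.19, limma adjusted p = 0.496), or -0.22 without that tumor. Its share of the summed Wnt-binding antagonists was 94.0%, 92.2% and 88.4% in Trp53fl/fl tumors and 83.3%, 74.7% and 93.0% in VP tumors.

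Frzb, also known as Sfrp3, was at 5.34, 5.27 and 9.31 TPM in Trp53fl/fl tumors and at 7.34, 8.05 and 4.60 TPM in VP tumors. The ranges overlapped widely, and the difference of 0.01 (95% interval -0.62 to 0.65) became -0.13 on division by the epithelial markers. Sfrp4 was at 1.04, 1.69 and 1.33 TPM and at 0.75, 0.92 and 0.23 TPM, respectively. No tumors overlapped, but Sfrp4 entered the test only because its 3 Trp53fl/fl values reached 1 TPM, so its lack of overlap follows from that threshold (log2 fold change -0.54, SE 0.25, limma adjusted p = 0.422). Sfrp5 stayed between 0.32 and 0.74 TPM and was not tested.

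Of the Dickkopf genes, Dkk2 differed most between the genotypes. Dkk2 encodes an Lrp6 ligand that inhibits the Wnt co-receptors in most settings. It was at 27.5, 20.7 and 27.1 TPM in Trp53fl/fl tumors and at 8.15, 11.9 and 20.6 TPM in VP tumors. No tumors overlapped, yet VP tumor 3 and Trp53fl/fl tumor 2 were nearly equal. The means were 25.1 ± 3.82 and 13.6 ± 6.40 TPM (SD, n = 3), a log2 fold change of -0.92 (SE 0.30, 95% interval -1.64 to -0.20, limma adjusted p = 0.333). Leaving out each tumor in turn gave -1.25 to -0.63. The unadjusted limma p of Dkk2 was above 0.05 without Trp53fl/fl tumor 1 and without Trp53fl/fl tumor 3.

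Dkk3, the divergent member of the family, was more abundant and did not separate the genotypes. It was at 55.4, 83.6 and 60.7 TPM in Trp53fl/fl tumors and at 96.4, 48.3 and 64.9 TPM in VP tumors. The VP genotype held both the highest and the lowest tumor, and the difference of 0.03 (SE 0.27, 95% interval -0.59 to 0.66) became -0.13 on division by the epithelial markers. Dkk1 and Dkk4, well known as Wnt-induced inhibitors, were listed at 0 in 5 of the 6 tumors each and did not exceed 0.06 TPM.

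**Figure D4:**
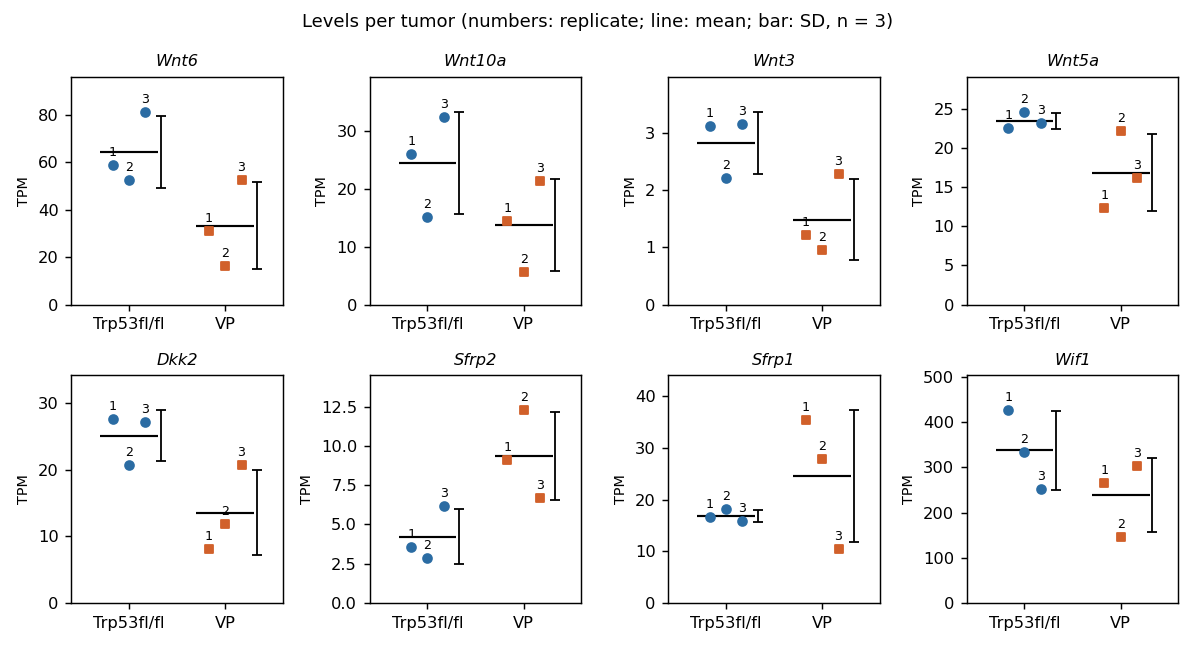
Level in TPM of 5 members with an unadjusted p under 0.05 (Wnt6, Wnt3, Wnt5a, Dkk2 and Sfrp2) and of Wnt10a, Sfrp1 and Wif1, with 1 point per tumor and its replicate number, the mean as a line and the SD as a bar (n = 3 per genotype). VP tumor 3 is the VP tumor nearest to the Trp53fl/fl values for Wnt6, Wnt3, Dkk2 and Sfrp2.

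The plot of single genes per tumor shows how strongly the VP values depended on the tumor. For Wnt6, Wnt10a, Wnt3 and Dkk2, VP tumor 3 was the highest VP tumor, and for Sfrp2, Sfrp1, Frzb and Rspo3 it was the lowest. VP tumor 3 was the lowest of all 6 tumors for 11 of the 30 tested members, VP tumor 2 for 8 and Trp53fl/fl tumor 2 for 7. The SD of log2(TPM + 1) was larger among VP than among Trp53fl/fl tumors for 18 of 30 members (60%), beside 47.8% of all genes tested. The median SD over the members was 0.36 among VP and 0.28 among Trp53fl/fl tumors, and over all genes tested 0.18 and 0.20.

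Markers of the cell types that could supply these transcripts were summed in each tumor. Of the sources of mesenchymal Wnt signals, 7 markers of subepithelial myofibroblasts and telocytes summed to 102, 131 and 95.4 TPM in Trp53fl/fl tumors and to 91.6, 92.4 and 89.5 TPM in VP tumors, without overlap, although only Gli1 and Foxf2 among them did not overlap singly. The 5 markers of crypt-base mesenchyme summed to between 365 and 375 TPM and to between 300.01 and 358 TPM, respectively, a sum carried by Cd81. Of these 5, only Cd81 did not overlap singly, and 4 had a difference below 0. Grem1 went the other way, with means of 35.2 TPM in Trp53fl/fl and 49.7 TPM in VP tumors and overlapping ranges. Both sums were lower in VP tumors, the second through Cd81. The part of these cells in the Wnt5a and Dkk2 levels was not tested. Endothelial markers (75.5 to 92.2 TPM and 90.0 to 98.7 TPM), macrophage markers (356 to 380.4 TPM and 372 to 458 TPM), T cell markers (26.2 to 36.0 TPM and 17 to 38.2 TPM) and markers of B and plasma cells (747 to 1059 TPM and 703 to 1179 TPM) overlapped between Trp53fl/fl and VP tumors. No marker of these lists was at 0 in all tumors.

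**Figure D5:**
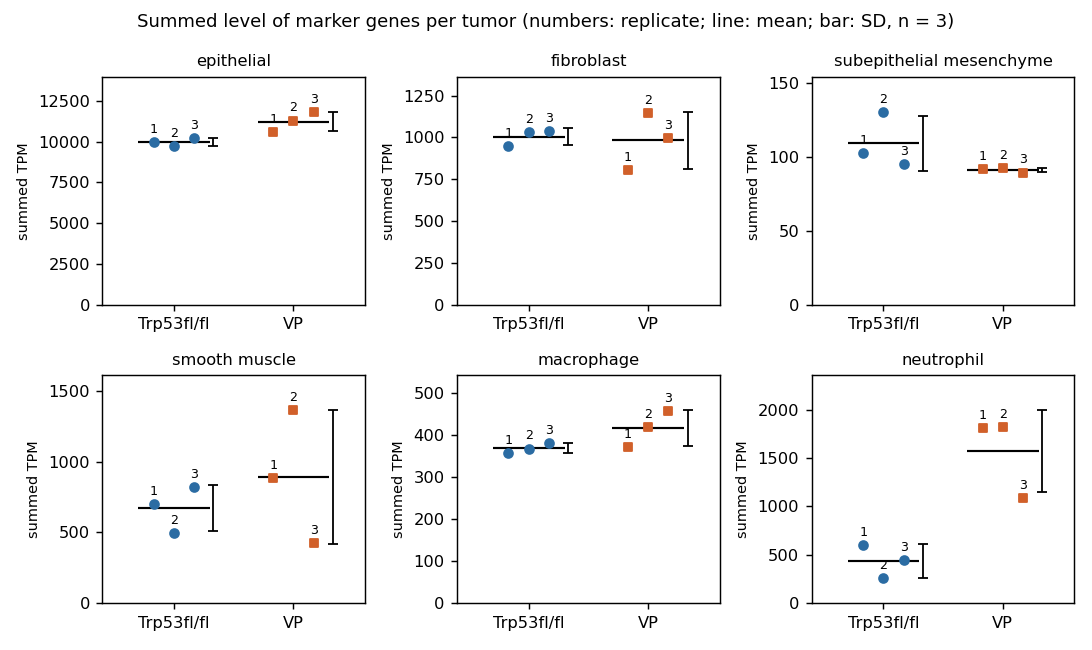
Summed level of marker genes of 6 cell types in each tumor in TPM, with the replicate number at each point, the mean as a line and the SD as a bar (n = 3 per genotype). Epithelial and neutrophil sums are higher and subepithelial mesenchyme sums are lower in all VP tumors, whereas VP tumors 2 and 3 hold the highest and the lowest smooth muscle sum.

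Downstream and around the ligands and receptors, the other genes of the pathway were examined in 4 lists, and 0 of their 64 tested genes had a limma adjusted p under 0.05. At an unadjusted p under 0.05, 2 of the 64 were higher and 8 lower in VP tumors, beside 4.51% higher and 8% lower of all genes tested, so the count stands near the background. In the list of Wnt secretion factors, co-receptors and membrane regulators, 20 of 23 genes were tested, 1 was higher and 3 were lower at that p (4.51% and 8% of all genes), and the median difference was -0.16, beside -0.07 over all genes tested. That all-gene median was -0.01 after rescaling by median ratios and -0.23 on division by the epithelial markers.

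Znrf3, the ligase that removes Frizzled receptors, was at 21.2, 22.6 and 19.96 TPM in Trp53fl/fl tumors and at 16.03, 10.1 and 14.0 TPM in VP tumors, without overlap (log2 fold change -0.65, SE 0.18, limma adjusted p = 0.289). Kremen2, a receptor for Dickkopf proteins, was at 6.66, 7.32 and 4.23 TPM and at 13.1, 10.2 and 8.63 TPM, respectively, with every VP tumor above (0.73, SE 0.23, limma adjusted p = 0.317). Lgr5, the R-spondin receptor that marks crypt stem cells, was at 36.4, 32.6 and 39.9 TPM and at 29.3, 25.3 and 15.1 TPM, with every VP tumor below (-0.67, SE 0.24, limma adjusted p = 0.344). Notum, which strips the lipid from secreted Wnt proteins and is itself a Wnt target, did not overlap either, with 227 to 242 TPM in Trp53fl/fl tumors and 162 to 206 TPM in VP tumors (-0.30, SE 0.12, limma adjusted p = 0.379). In this list, 1 of the 20 tested genes had every VP tumor above and 6 had every VP tumor below. The shares over all genes tested were 6.03% and 13.3%.

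All 18 genes of the list on beta-catenin degradation and signal transduction were tested, with 0 higher and 3 lower at an unadjusted p under 0.05 (4.51% and 8% of all genes) and a median difference of -0.24 (all genes -0.07). Csnk1a1, the kinase that primes beta-catenin for degradation, was at 242, 225 and 205 TPM in Trp53fl/fl tumors and at 153, 149 and 156 TPM in VP tumors. The VP tumors were close together and all below the others, with the lowest adjusted p of the 4 lists (log2 fold change -0.55, SE 0.10, limma adjusted p = 0.145). Tnks, a tankyrase that marks Axin for removal, was at 16.5 to 20.1 TPM and at 12.8 to 14.5 TPM, respectively, again without overlap (-0.35, SE 0.13, limma adjusted p = 0.358). Csnk1a1 and Tnks were the 2 of 18 with every VP tumor below, beside 13.3% of all genes tested.

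Among 11 tested TCF/LEF factors and nuclear partners, of 12 listed, 1 was higher and 0 lower at that p (4.51% and 8% of all genes), and the median difference was -0.27 (all genes -0.07). Tcf7l1, which often acts as the repressor of the family, was the higher one, at 15.8, 12.3 and 23.3 TPM in Trp53fl/fl tumors and at 26.02, 29.4 and 25.7 TPM in VP tumors (log2 fold change 0.67, SE 0.22, limma adjusted p = 0.331). The other 10 differences were below 0. Lef1 (-0.74, SE 0.32, limma adjusted p = 0.401) and Tle2 (-0.56, SE 0.24, limma adjusted p = 0.399) had every VP tumor below, 2 of 11, beside 13.3% of all genes tested. Of 15 Wnt target genes, all tested, 0 were higher and 2 lower at that p (4.51% and 8% of all genes), and the median difference of -0.05 was close to that of all genes, -0.07. Axin2, a widely used readout of the pathway, was at 177, 149 and 169 TPM and at 130, 117 and 138 TPM, respectively, with all VP tumors below (-0.36, SE 0.12, limma adjusted p = 0.323). Prox1, a transcription factor that colorectal tumors switch on through TCF, was at 92.9, 90.1 and 76.8 TPM and at 56.4, 32.1 and 52.0 TPM (-0.91, SE 0.22, limma adjusted p = 0.266). Axin2 and Prox1 were the 2 of 15 with every VP tumor below, beside 13.3% of all genes tested. Cd44, a cell surface receptor, was the 1 of 15 with every VP tumor above, beside 6.03% of all genes tested. It was at 66.3, 59.6 and 60.8 TPM against 66.6, 81.4 and 75.2 TPM (0.25, SE 0.11, limma adjusted p = 0.416). The separation was narrow, as VP tumor 1 was nearly level with Trp53fl/fl tumor 1. Myc and Sox9 overlapped, with differences of 0.13 and 0.06.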

How the data were processed

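Per the study's methods, mRNA was selected by poly(A) and paired-end Illumina libraries were made. The authors deposited 1 TPM value per gene and tumor, with 2 decimals. The submitters' processing notes name HISAT2, StringTie and mm9, without versions or roles, and the annotation is not given in the sources used here. TPM sum to a fixed total, so each value depends on all other genes of the tumor, and no reads, depth or counting error can be recovered. Columns were assigned by the tumor codes in the labels, and no columns were identical. From the deposited TPM, log2(TPM + 1) was tested with limma 3.58.1 in R 4.3.3 (genotype as the only term, empirical Bayes with trend, two-sided) on the 15117 genes reaching 1 TPM in 3 or more tumors, and p-values were adjusted by Benjamini-Hochberg over all of them. The procedure was tested on simulated data. Sums, ratios, promoter searches and figures were made with Python 3.11.15, numpy 2.4.6, pandas 2.3.3 and matplotlib 3.10.9. Promoters were RefSeq sequences on GRCm38.p6, matched by symbol.

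Members with an unadjusted p under 0.05, without overlap or averaging at least 5 TPM were given per tumor, together with the highest gene of each class, and of the other pathway genes those with an unadjusted p under 0.05 and no overlap, at most 3 a list, besides Axin2, Notum and Lgr5. Wnt16, Wnt2b, Wnt5b, Wnt11, Wnt4, Wnt8b, Rspo4, Krt8, Krt19, Cldn7, Grem1, Lef1, Tle2, Cd44, Myc and Sox9 were named after their values were seen. The members, the pathway lists and the marker lists were chosen with earlier results of these data known, and 1 marker list is not reported here. The alternatives were a pseudocount of 0.1, no filter, median-of-ratios rescaling, quantile normalization, division by the mean of the epithelial markers, a block for the replicate number, omission of the empirical Bayes trend, and each tumor left out in turn.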

Additional observations from a re-analysis of the deposited data

How the results depend on the processing

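The number of members with a limma adjusted p under 0.05 was 0 in each of the 13 alternatives. Their number at an unadjusted p under 0.05 was 8 instead of 5 with division by the epithelial markers, and from 2 to 6 when single tumors were left out. Over all genes, the 25 adjusted calls became 7 without the filter, 39 with division by the epithelial markers and from 6 to 28 when single tumors were left out. That division moved the median difference of all genes from -0.07 to -0.23, so members near 0 turned: Lrp5 to -0.062, Frzb, Wnt5b and Dkk3 to -0.13, Porcn to -0.12, Fzd7 to -0.11, Fzd1 to -0.16, Fzd5 to -0.14 and Fzd4 to -0.10. Wnt2b turned to 0.027 with median-of-ratios rescaling and to 0.053 with quantile normalization. With single tumors left out, sign changes occurred within -0.17 to 0.54 for Wnt11, -0.054 to 0.20 for Lrp5, -0.12 to 0.25 for Frzb, -0.13 to 0.14 for Wnt2b, -0.13 to 0.27 for Wnt5b, -0.22 to 0.27 for Dkk3, -0.16 to 0.11 for Porcn, -0.089 to 0.22 for Fzd7, -0.066 to 0.091 for Fzd1, -0.090 to 0.14 for Fzd5, -0.39 to 0.039 for Fzd9, -0.18 to 0.15 for Fzd4 and -0.55 to 0.28 for Fzd10. The other 17 tested members kept the sign of their difference in all 13 alternatives. The Trp53 adjusted p was 0.104 without the filter. The causes were not tested.

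With the replicate number as a block, the adjusted calls over all genes were 10, those among the members 0, and the Trp53 adjusted p was 0.0883. Deviations of same-numbered tumors correlated at 0.02, -0.05 and 0.02 over all genes tested. With 3 tumors per genotype this cannot decide whether the numbers pair the tumors, and the labels do not name the animals. The unknown depth limits what can be said of the 16 members under the filter.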
